A study of Mus musculus with 6 samples.

Results

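The 10 genes described here are core components and direct outputs of the circadian clock, taken by name from the 55604 genes of the count tables: Per1, Per2, Per3, Dbp, Nr1d1, Nr1d2, Arntl, Clock, Ciart and Tef. All 10 were found, and all 10 passed the filter on low counts that left 11388 genes to test. RNA came from the brain of C57BL/6 mice, in 3 samples after intraperitoneal injection of 4-aminopyridine (4-AP), a blocker of voltage-gated potassium channels used to induce status epilepticus, and in 3 samples labelled untreated. Linear RNA had been digested with RNase R before library construction in all 6, so a gene-level count adds up what survived of the linear RNA and any circular RNA of the same exons. The labels give no age, sex, dose, time from injection or time of day, no brain region, no vehicle injection for the controls, and do not say whether the samples of a group came from different animals. The spread behind each p-value is that between these samples and may be technical.

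The mammalian clock is a loop of transcription and translation. CLOCK and ARNTL (also called BMAL1) form a dimer that binds E-box elements and switches on the Per and Cry genes, Nr1d1 and Nr1d2, Dbp, Tef and Ciart. PER and CRY proteins then block the dimer, while NR1D1 and NR1D2 (REV-ERB alpha and beta) bind ROR elements and repress Arntl and, more weakly, Clock. In most rodent tissues outside the suprachiasmatic nucleus, the master clock of the hypothalamus, Arntl RNA is therefore highest around the end of the night and lowest when Nr1d1, Dbp and the Per genes are high. Per1 and Per2 also respond to neuronal activity through CREB, and Per1 to glucocorticoids. The 10 genes were grouped by this textbook phase: Arntl and Clock as dawn genes, Nr1d1, Nr1d2, Dbp and Ciart as day genes, and Per1, Per2, Per3 and Tef as dusk genes. The division between day and dusk is loose, since those peaks lie close together. Arntl stands opposite to both, and Clock, which is repressed more weakly, was placed with it.

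The promoter sequences were searched for the elements through which the phases are known to be set. RefSeq (GRCm38.p6) start sites were found for 9 of the 10 genes, all but Per2, in 14 windows of 300 bases that run from 250 bases before to 50 after the start. Both strands were searched, and no 2 of the motifs overlapped in these windows. The E-box CACGTG was present in the windows of Ciart, Per1 and Tef (4 of 14 windows, against 7.15% of all 32851 promoter windows). The D-box TTATGTAA, bound by DBP, TEF and HLF, was present in Per3 alone (0.938% of all windows), and the ROR half-site TAGGTCA in 1 of the 2 Arntl windows (2.61% of all). The other form of that half-site, TGGGTCA (3.98% of all windows), and the cAMP response element TGACGTCA (1.79%) were in none of the 14. The half-site of that element, TGACG, which CREB can also bind and which is common (20.8% of all windows), was in both Per1 windows, beginning 246 and 132 bases before the start, and in none of the other windows. The 4 windows below were chosen to show 1 example of each arrangement, written 5′ to 3′ on the strand of the gene, with the E-box, D-box or ROR half-site in capitals and the cAMP half-site left in lower case. The Ciart window (chr3:95882179-95882478, minus strand) holds 3 E-boxes, which begin 116, 58 and 44 bases before the start.
Ciart: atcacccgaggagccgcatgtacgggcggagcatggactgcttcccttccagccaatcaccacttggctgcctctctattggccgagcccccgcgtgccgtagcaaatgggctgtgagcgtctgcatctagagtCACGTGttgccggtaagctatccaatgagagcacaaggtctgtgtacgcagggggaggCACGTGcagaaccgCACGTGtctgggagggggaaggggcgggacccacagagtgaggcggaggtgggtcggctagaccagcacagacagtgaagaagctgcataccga
The Per1 window (chr11:69098699-69098998, plus strand) holds 1 E-box, beginning 166 bases before the start.
Per1: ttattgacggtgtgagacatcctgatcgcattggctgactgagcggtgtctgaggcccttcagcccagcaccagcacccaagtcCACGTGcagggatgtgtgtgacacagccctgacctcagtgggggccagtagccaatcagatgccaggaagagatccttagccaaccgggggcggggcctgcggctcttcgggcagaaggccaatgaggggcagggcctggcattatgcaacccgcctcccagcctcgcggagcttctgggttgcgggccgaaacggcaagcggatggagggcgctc
The Per3 window (chr4:151044616-151044915, minus strand) holds 2 D-boxes, beginning 205 and 158 bases before the start.
Per3: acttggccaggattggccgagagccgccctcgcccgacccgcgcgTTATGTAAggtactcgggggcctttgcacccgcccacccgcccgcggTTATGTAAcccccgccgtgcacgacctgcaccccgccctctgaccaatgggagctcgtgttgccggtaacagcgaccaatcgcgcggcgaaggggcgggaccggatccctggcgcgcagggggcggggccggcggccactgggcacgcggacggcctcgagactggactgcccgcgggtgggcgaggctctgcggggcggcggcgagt
The Arntl window (chr7:113207261-113207560, plus strand) holds its ROR half-site within the transcribed part, beginning at base 31.
Arntl: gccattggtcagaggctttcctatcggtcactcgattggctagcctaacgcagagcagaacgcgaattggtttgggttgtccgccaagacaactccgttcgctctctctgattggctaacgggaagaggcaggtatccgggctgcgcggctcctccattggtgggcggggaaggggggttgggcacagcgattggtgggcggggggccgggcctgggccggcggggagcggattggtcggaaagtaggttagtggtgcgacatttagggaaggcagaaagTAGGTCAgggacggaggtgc
A match is a run of letters and no measurement of binding, and the counts below do not bear on which element was used.

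Total counts ranged from 1507882 to 2721287 in the 4-AP libraries and from 2355610 to 3409055 in the controls, and 3 counts, the limit taken for detection, corresponded to 0.778 to 2.19 CPM (counts per 1e+06 reads, scaled by trimmed mean of M-values). Of the 11388 genes, 0.843% passed edgeR's quasi-likelihood test at a Benjamini-Hochberg adjusted p under 0.05, 58 of them lower and 38 higher in 4-AP brain; scaling by total counts alone gave 293 lower and 26 higher. Defining brain markers were abundant in both groups, the oligodendrocyte gene Mbp for example at 1469 ± 163 CPM after 4-AP and 1671 ± 455 in controls (SD, n = 3 each). The groups differed in markers of brain regions. The 7 cortical excitatory neuron markers summed to between 1263 and 1848 CPM after 4-AP and between 2344 and 2424 in controls (all 7 below 0 and 3 called lower, none of those 3 in the fits without 4-AP replicate 3, control replicate 2 or control replicate 3). The 10 hypothalamic markers summed to 47.9 to 73.1 CPM against 5.80 to 17.6. Of these, 4 had enough counts to test, 3 were called higher, and Pomc lay below 0 (-0.60) with overlapping groups. The marker lists were chosen with earlier results of these data known, so their sums and calls are descriptions. The sums of some cell type markers separated the groups as well. The 5 astrocyte markers summed to between 1458 and 1733 CPM against 2145 to 2251, mostly through the glutamate transporter gene Slc1a2 (log2 fold change -0.63; adjusted p = 0.0328 by edgeR), while 3 of the 5 lay above 0. Slc1a2 was called in 11 of 16 alternatives. It was not called with no robust fit, nor without 4-AP replicate 1 or 3 or control replicate 2 or 3. The 5 microglial markers summed to between 437 and 515 CPM against 332 to 404, with none called and 3 of the 5 above 0. Most of that gap lay in Cx3cr1, at 404, 390 and 328 CPM after 4-AP and 251, 279 and 227 in controls. C1qa lay below 0 (-0.33). In bulk RNA, fewer cells of a type and less RNA per cell cannot be told apart. Control replicate 1 stood apart with 50.3 CPM over the 6 striatal markers, where the 5 other libraries had between 434 and 717.

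No separation of the clock genes by phase was seen beyond the spread between libraries. All 10 had a log2 fold change below 0 in 4-AP brain, from -0.02 for Dbp to -0.73 for Per2, with a median of -0.31 beside -0.0076 for all genes tested; 51% of all genes lay below 0. The 2 dawn genes had a median of -0.31 and the 8 day and dusk genes a median of -0.26, a difference of 0.048. None of the 10 passed edgeR's test over all genes, where the background of calls was 0.843% (0.509% lower and 0.334% higher), and none passed by limma-voom or by DESeq2, which gave an adjusted p for 6 of the 10 (not for Arntl, Nr1d1, Ciart and Per2). At an unadjusted p under 0.05, 2 of the 10 were found (Per1 and Per2), beside 13.9% of all genes. Per1 and Per2 were 1.51 and 1.66 times as high in controls, and on simulated data the procedure recovered 9.83% of 1.5-fold and 54.3% of 2-fold changes. A missing call therefore does not show that a gene was unchanged. In 1 of the 10, Per1, the groups did not overlap, with every 4-AP library below every control, as in 10.4% of all genes; the reverse, seen in 8.36% of all genes, was found in 0 of the 10. Dbp, at the edge of 0, had a positive sign under relative log expression scaling (0.0039) and upper quartile scaling (0.013).

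**Figure D1:**
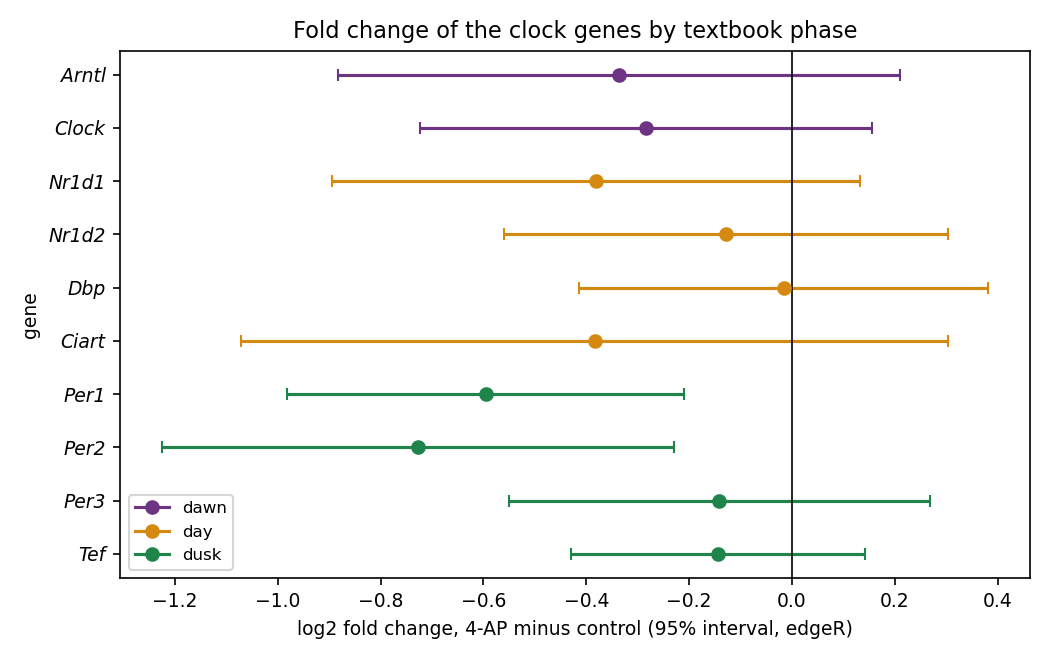
Log2 fold change of each clock gene (4-AP minus control, x axis) with its 95% interval from edgeR, n = 3 libraries per group, coloured by textbook phase. All 10 points lie below 0, from -0.73 (Per2) to -0.02 (Dbp, whose sign turned under relative log expression and upper quartile scaling), and the intervals of dawn, day and dusk genes overlap.

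A measure within each library, which does not depend on how that library is scaled, gave a similar picture. The mean log2 CPM of the 8 day and dusk genes minus that of Arntl and Clock was 0.91, 0.67 and 1.42 in 4-AP replicates 1, 2 and 3. It was 1.11, 0.77 and 1.06 in control replicates 1, 2 and 3. The group ranges overlapped, and the highest and the lowest of the 6 values were both 4-AP libraries. The means were 1.001 ± 0.382 and 0.98 ± 0.19 (SD, n = 3 each), a difference of 0.020 that is smaller than either SD. It changed sign without 4-AP replicate 3 (-0.19) and without control replicate 2 (-0.087). The 4 day genes minus the 4 dusk genes gave -1.21 ± 0.18 after 4-AP and -1.36 ± 0.22 in controls, again within the spread. No p is given for these scores, because the genes and their phase groups were chosen with earlier results of these data known. A shift of the size of this spread between libraries, or smaller, could go unseen, and no limit of detection was computed. The dawn side of the measure rested on Arntl and Clock alone, of which Clock is the more weakly repressed. Textbook phases are those of messenger RNA, while counts after RNase R digestion may include circular RNA. The labels used here give no sampling time, so its part in any of these values was not tested.

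**Figure D2:**
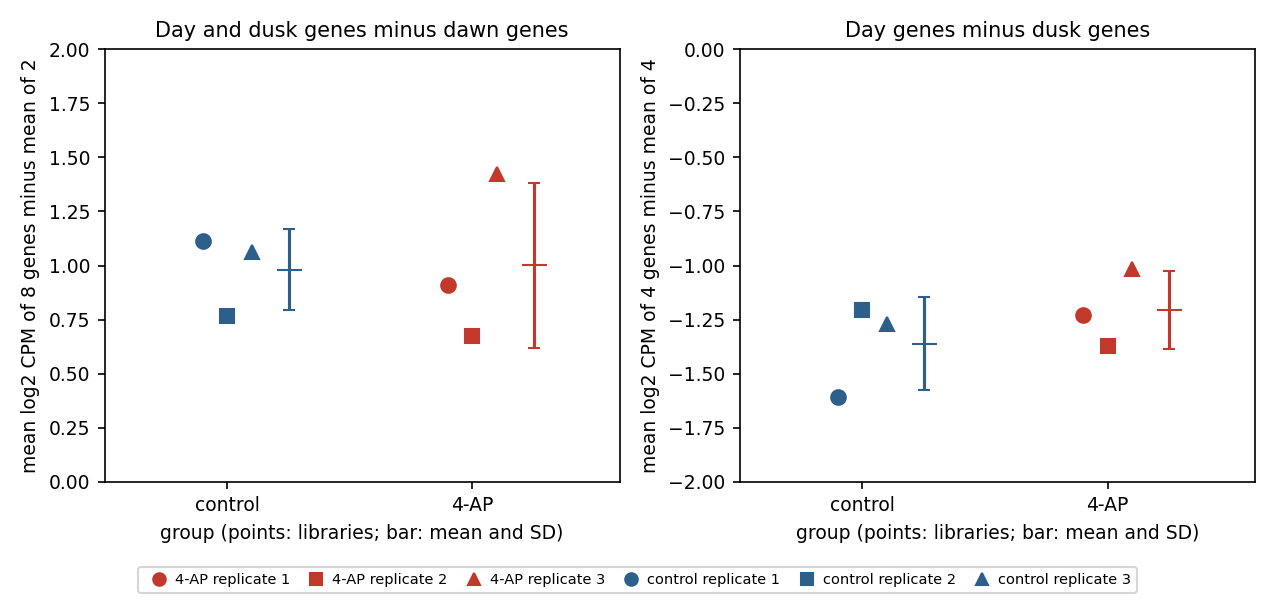
Difference between the mean log2 CPM of gene groups within each library (y axes), for day and dusk genes minus dawn genes and for day genes minus dusk genes; points are libraries, bars are the mean and SD of 3. In the first panel the 4-AP libraries span 0.67 to 1.42 and the controls 0.77 to 1.11, so the groups overlap.

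Arntl, the E-box activator whose RNA marks dawn, lies on chromosome 7 (113207465 to 113314126, mm10, plus strand). It was at 18.25, 15.7 and 12.4 CPM in the 4-AP libraries and at 20.4, 18.15 and 20.5 in the controls. The highest 4-AP value lay just inside the control range and the other 2 below it. The log2 fold change was -0.34 (SE 0.26, 95% interval -0.88 to 0.21; adjusted p = 0.638 by edgeR). Its counts were low, 17 to 70 reads per library, which limits the precision. Clock, its partner in the dimer, was at 54.8, 54.3 and 35.1 CPM after 4-AP and at 53.4, 72.6 and 50.4 in controls. 4-AP replicates 1 and 2 lay within the control range, and 4-AP replicate 3, the shallowest library, was the lowest for both dawn genes. Clock had an estimate of -0.28 on the log2 scale (95% interval -0.72 to 0.16; adjusted p = 0.613 by edgeR), which moved to -0.081 without control replicate 2 and to -0.12 without 4-AP replicate 3. Without the latter, Arntl moved to -0.22.

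**Figure D3:**
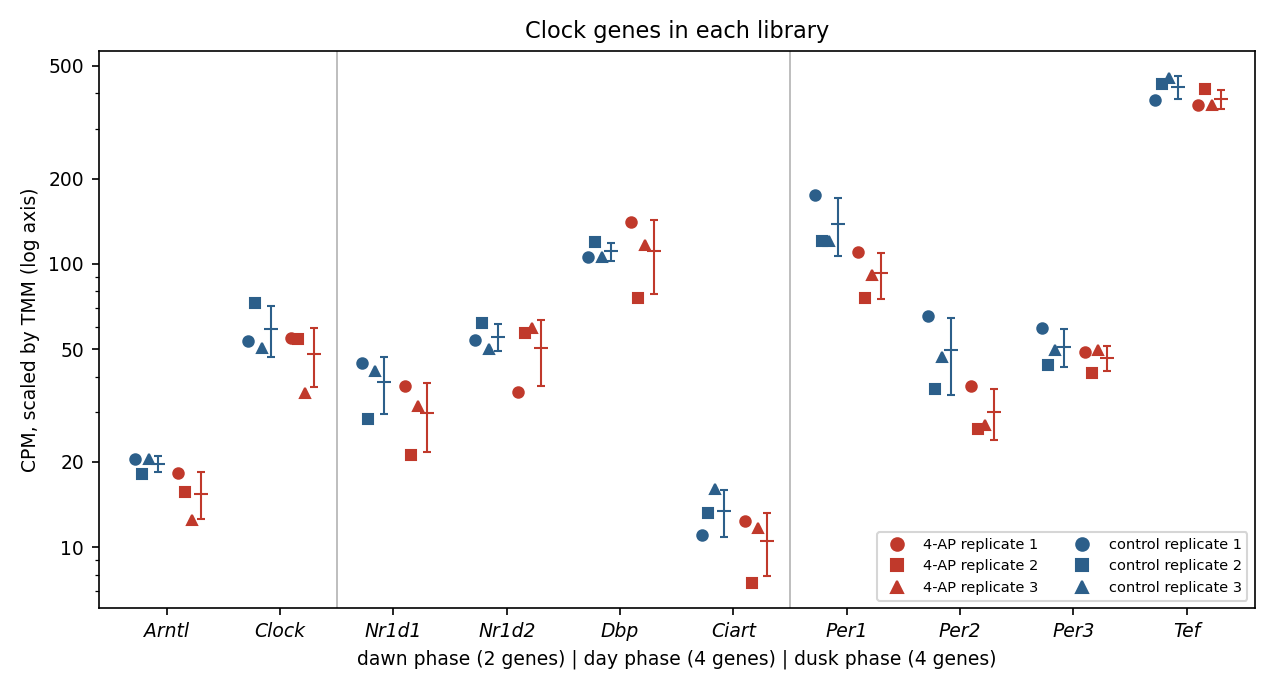
CPM of the 10 clock genes in each of the 6 libraries on a log axis, ordered by textbook phase, with the mean and SD of each group (n = 3). Per1 is the 1 gene whose 4-AP libraries (76.1 to 110 CPM) all lie below its controls (120 to 176 CPM); Dbp has the same mean in both groups, 111 CPM.

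Dbp, a D-box-binding PAR bZIP activator and one of the strongest clock outputs, had the same mean in both groups. It was at 140, 75.8 and 116 CPM in 4-AP replicates 1, 2 and 3 and at 106, 120 and 106 in the controls. The controls were close together, and the 4-AP libraries lay on both sides of them. The means were 111 ± 32.6 and 111 ± 7.94 CPM, and the 95% interval of the control to 4-AP ratio ran from 0.767 to 1.33 (adjusted p = 0.985 by edgeR). The estimate moved from -0.02 to 0.24 on the log2 scale without 4-AP replicate 2 and to 0.068 without control replicate 2. On chromosome 7 (45705088 to 45710203, mm10), 18% of Dbp's exonic bases overlap the antisense gene Sphk2, and without a stated strand setting reads there cannot be assigned with certainty.

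Nr1d1, the REV-ERB alpha repressor of Arntl, was at 37.2, 21.1 and 31.4 CPM after 4-AP and at 44.6, 28.3 and 42.0 in controls. Each group held 1 low library, replicate 2 in both, and the ranges overlapped (log2 fold change -0.38, SE 0.25; adjusted p = 0.542 by edgeR). The estimate was -0.12 without 4-AP replicate 2, -0.24 without control replicate 1 and -0.58 without 4-AP replicate 1. The gene shares 8.55% of its exonic bases with Thra on the other strand. Its paralogue Nr1d2 was at 35.2, 56.8 and 59.2 CPM against 53.8, 61.7 and 49.98. Here 4-AP replicate 1 was the low library and the others lay within the control range, and without that library the log2 fold change went from -0.13 to 0.064. Ciart (also called Chrono), a repressor of the CLOCK and ARNTL dimer with the 3 E-boxes shown above, was the least counted member at 16 to 51 reads per library. It was at 12.4, 7.50 and 11.7 CPM against 11.0, 13.2 and 16.1, overlapping ranges with a log2 fold change of -0.38 (SE 0.33) that moved to -0.12 without 4-AP replicate 2 and to -0.25 without control replicate 3. Nr1d1, Dbp and Ciart were each lowest in 4-AP replicate 2, where the 4 day genes summed to 161 CPM against 214 to 225 in the 5 other libraries. That library also had the highest sum of the 5 choroid plexus markers, 75.8 CPM against 1.04 to 35.1 elsewhere; whether the observations are related was not tested.

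Per1 and Per2, the Period repressors, had the smallest p-values of the 10 genes. Per1, on chromosome 11 (69095217 to 69109960, mm10, plus strand), was at 110, 76.1 and 91.4 CPM in 4-AP replicates 1, 2 and 3 and at 176, 120 and 121 in the controls. All 3 4-AP libraries lay below all 3 controls, and control replicate 1 was far above the other 2. The mean was 92.5 ± 17.1 CPM after 4-AP and 139 ± 31.9 in controls, and the estimate on the log2 scale was -0.60 (95% interval -0.98 to -0.21; adjusted p = 0.123 by edgeR). Per2, on chromosome 1 (91415982 to 91459324, mm10, minus strand), was at 37.2, 26.1 and 27.0 CPM against 65.7, 36.0 and 46.9. The groups overlapped by a single library each, 4-AP replicate 1 lying just above control replicate 2. The estimate was -0.73 on the log2 scale (95% interval -1.23 to -0.23; adjusted p = 0.147 by edgeR). Without control replicate 1, the highest library for both genes, the changes were -0.38 for Per1 and -0.45 for Per2. Neither gene passed in any of the 6 fits that left out 1 library, in which Per1 ranged from -0.74 to -0.38 and Per2 from -0.90 to -0.45. Scaling by total counts alone called both lower (-0.83 and -0.95); that scaling moved the median of all genes to -0.22, and relative to it the changes were -0.61 and -0.73. With no filter on low counts Per1 alone was called (-0.63; adjusted p = 0.0361 by edgeR).

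Per3, the third Period gene and the carrier of the 2 D-boxes, was at 48.9, 41.1 and 49.7 CPM after 4-AP and at 59.4, 44.1 and 49.5 in controls. The ranges overlapped (log2 fold change -0.14, SE 0.20, 95% interval -0.55 to 0.27), and the estimate was -0.0056 without control replicate 1, -0.022 without 4-AP replicate 2 and -0.22 without control replicate 2. Tef, a PAR bZIP factor like Dbp, was the most abundant member. It was at 364, 415 and 365 CPM against 379, 433 and 454, with a log2 fold change of -0.14 (SE 0.14). Its interval, -0.43 to 0.14, was the narrowest of the 10, and with 1 library left out the estimate ran from -0.21 to -0.090.

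Genes that respond to neuronal activity and to glucocorticoids were set beside Per1 and Per2, since both inputs are known to act on them. Of the 14 activity-induced genes, 13 were tested. Among these, 1 was called lower (Ier5, an immediate early gene, -1.13, adjusted p = 0.00309 by edgeR), beside 0.509% of all genes, and 0 higher. The median log2 fold change was -0.72, and 12 lay below 0, where 51% of all genes did. At an unadjusted p under 0.05 by edgeR, 8 of the 13 were found, beside 13.9% of all genes. In 6 every 4-AP library lay below every control, beside 10.4% of all genes, and in 1 above, beside 8.36%. Dusp1, a MAP kinase phosphatase gene, had the smallest p of the positive side (log2 fold change 0.37, adjusted p = 0.592 by edgeR). Their summed level was 640, 496 and 559 CPM in 4-AP replicates 1, 2 and 3 and 1440, 872 and 854 in control replicates 1, 2 and 3. Control replicate 1 was highest for this sum, for Per1 and Per2, and also for the sum of the glucocorticoid-induced genes (804 CPM). The order of the 4-AP libraries was that of Per1, whereas control replicate 2 was above control replicate 3 in the sum and below it in Per1 and Per2. Of the 13 glucocorticoid-induced genes, 12 were tested and 1 was lower, Klf9, a Kruppel-like factor gene (-0.65; adjusted p = 0.0362 by edgeR), beside the same 0.509% of all genes; 7 of the 12 lay below 0. Klf9 was called in 10 of 16 alternatives. It was not called by limma-voom, with no robust fit, or without 4-AP replicate 1 or 3 or control replicate 2 or 3. Pdk4, a kinase of pyruvate dehydrogenase, had the smallest p of the positive side, with a log2 fold change of 1.28 (adjusted p = 0.187 by edgeR). The median of these 12 was -0.064, and the sums were 561 to 577 CPM against 658 to 804. Most of that gap lay in Klf9 and Zbtb16, the latter named here after its values were seen. Klf9 was at 135, 152 and 135 CPM after 4-AP and 193, 239 and 235 in controls. Zbtb16 was at 84.1, 45.0 and 45.3 CPM against 192, 94.4 and 91.5 (adjusted p = 0.246 by edgeR). The cortical, astrocyte and microglial marker sums given above also separated the groups, the astrocyte sum mostly through Slc1a2 and the microglial sum mostly through Cx3cr1. Slc17a7, the cortical vesicular glutamate transporter, was at 557 ± 116 against 964 ± 31.1 CPM. The part of activity, glucocorticoids or tissue composition in the values of Per1 and Per2 was not tested.

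**Figure D4:**
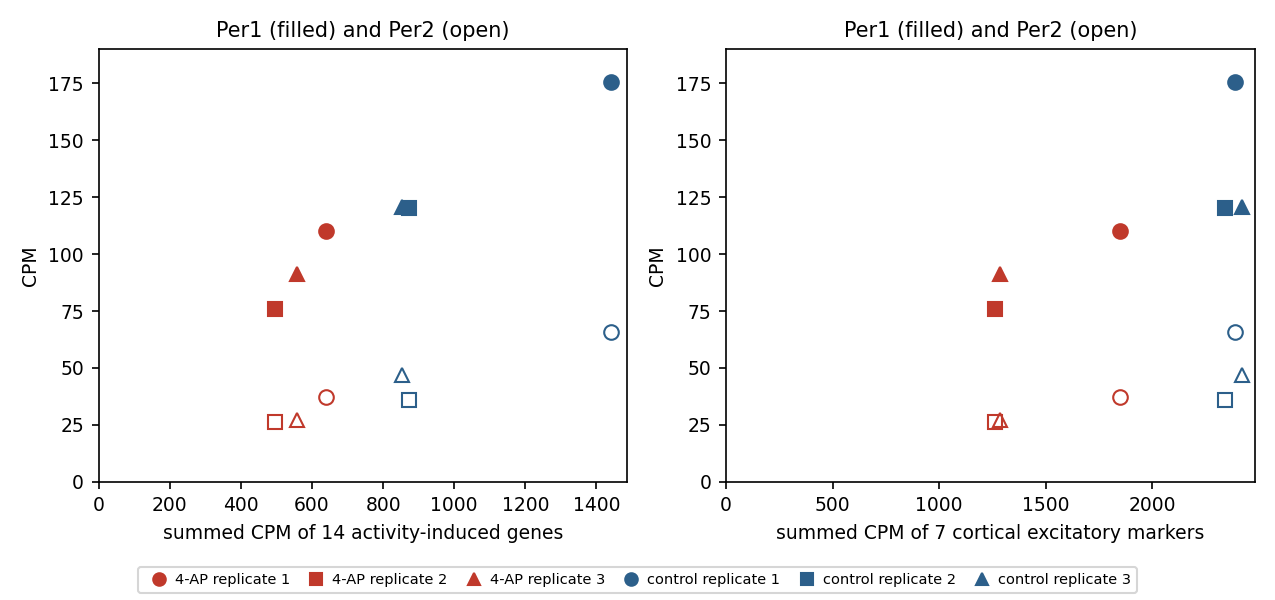
CPM of Per1 (filled) and Per2 (open) in each library (y axis) against the summed CPM of 14 activity-induced genes and of 7 cortical excitatory markers (x axes). Control replicate 1 is highest in Per1 (176 CPM), Per2 (65.7 CPM) and the activity-induced sum (1440 CPM), and the 2 groups do not overlap on either x axis.

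The rest of the clock machinery was read from 30 further genes, of which 27 had enough counts to test. None passed edgeR's test in either direction, beside 0.843% of all genes; 5 of the 27 had an unadjusted p under 0.05, beside 13.9% of all genes. DESeq2 called 1 lower and limma-voom none. Of the 27, 22 lay below 0, where 51% of all genes did, with a median of -0.16. In 7 of the 27 every 4-AP library lay below every control, beside 10.4% of all genes. The reverse was found in 0 of the 27, beside 8.36% of all genes. The smallest p-values belonged to Bhlhe40 and Hlf. Bhlhe40 (DEC1), an E-box-binding repressor that is also induced by activity, was at 76.9, 61.5 and 54.1 CPM after 4-AP and at 115, 102 and 101 in controls. The groups did not overlap, and the estimate was -0.73 on the log2 scale (SE 0.18; adjusted p = 0.0540 by edgeR, 0.00898 to 0.241 over 16 alternatives). Hlf, the third PAR bZIP factor beside Dbp and Tef, was at 41.1, 17.5 and 32.2 CPM against 64.8, 51.6 and 61.1. Again every 4-AP library lay below every control (-1.01, SE 0.25; adjusted p = 0.0559 by edgeR, 0.000957 to 0.185 over 16 alternatives). Each passed in 5 of the 16, and Hlf in 1 of the 6 that left out a library, without 4-AP replicate 1. Dbp, Tef and Hlf, which share the D-box as target, thus had estimates of -0.02, -0.14 and -1.01, and the differences between them were not tested. Cry2, a cryptochrome repressor, came next at -0.42 (SE 0.16, adjusted p = 0.226 by edgeR), also with every 4-AP library below every control.

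Of the genes with dawn or night phase outside the 10, Npas2, the brain paralogue of Clock, was at -0.06 (SE 0.18; 0.17 without 4-AP replicate 2) and the cryptochrome Cry1 at 0.28 (SE 0.21). Nfil3, the D-box repressor, was at -0.54 (SE 0.44) on 3 to 33 reads per library. None passed, and their signs differed. Csnk2a1, the catalytic subunit of casein kinase 2, and Nono, a PER-binding RNA-binding protein gene, were the other positive members with the smallest p. Their log2 fold changes were 0.22 and 0.19, and under total-count scaling alone Nono turned to -0.027.

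**Figure D5:**
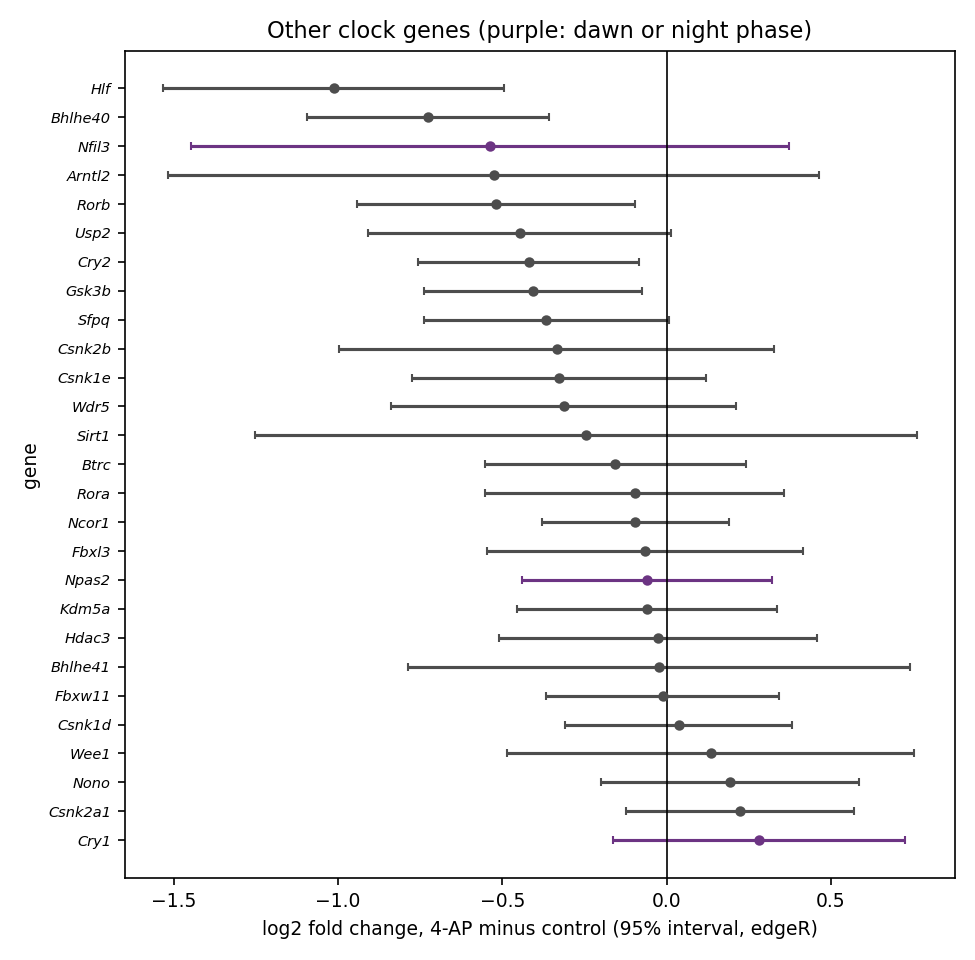
Log2 fold change (4-AP minus control, x axis) with its 95% interval from edgeR for the 27 other clock genes tested, n = 3 libraries per group; purple marks dawn or night phase. Hlf (-1.01) and Bhlhe40 (-0.73) lie lowest, Cry1 (0.28) highest, and 22 of the 27 points lie below 0.

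Most markers of the suprachiasmatic nucleus had too few counts to test. Of 14, 5 were tested, 1 was called higher, 4 lay above 0 and the median was 0.84. The 14 summed to between 209 and 317 CPM after 4-AP and between 67.4 and 170 in controls. Most of that sum was Zfhx3, a transcription factor gene named here after its values were seen, at 166, 233 and 251 CPM against 135, 36.6 and 39.7. Every 4-AP library lay above every control, with control replicate 1 near them (log2 fold change 1.61, SE 0.63; adjusted p = 0.381 by edgeR). Rgs16 (0.84) and Syt10 (0.50), both with overlapping groups, were the other tested members above 0 that did not pass. Nms, a peptide gene of that nucleus, had 0 counts in every library. Avp, which is made there and in other hypothalamic nuclei, rose, with 22, 29 and 26 counts after 4-AP and 0, 3 and 0 in controls (adjusted p = 0.000237 by edgeR). Vip, which is made there and in cortical interneurons, was the 1 tested member below 0, at 7.42 ± 0.73 against 11.2 ± 3.11 CPM (log2 fold change -0.55; adjusted p = 0.551 by edgeR). Among 8 temperature-responsive genes, several of which cycle with body temperature, none passed, and the median log2 fold change was -0.10. The extremes by p were Hspa1b and Hspa1a, with log2 fold changes of -0.67 and 0.19. They are a pair of near-identical heat shock genes between which reads can be split.

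Per kilobase of exon, the order of the levels was Tef, Dbp, Per1, Nr1d1, Nr1d2, Per2, Ciart, Per3, Clock and Arntl, by the mean over all 6 libraries. In controls Tef was at 53.6 ± 4.90 RPKM (CPM per kilobase of exon), Dbp at 37.0 ± 2.65, Per1 at 24.7 ± 5.66 and Nr1d1 at 12.4 ± 2.85, and each of the first 3 was above the next in every control library. From Nr1d1 down to Clock, the ranges of neighbours overlapped in controls (Nr1d2 10.2, Per2 8.46, Ciart 5.94, Per3 5.31, Clock 4.29 RPKM). Arntl, at 2.62 ± 0.18, was below Clock in every control. After 4-AP the order of the means was the same except that Per3 (4.85) stood above Ciart (4.66), and Tef (48.5 ± 3.71) and Dbp (37.0 ± 10.9) then overlapped. RNase R digestion changes such levels by how much of a gene's RNA is circular, so the order need not be that of the messenger RNAs.

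Likeness of pattern was measured as the root mean square difference of log2 CPM after centring each gene over the 6 libraries. The 5 genes closest to Dbp among 3162 candidates, all tested genes with a mean log2 CPM no more than 1 below that of Dbp, were mt-Nd2 (0.079), Npas2 (0.085), Map2k5 (0.090), Eya3 (0.095) and Lmo4 (0.115). Of the other clock genes among the 10, only Tef (0.335, rank 1549) and Per1 (0.363, rank 1924) were among these candidates. With the limit on level set aside, the nearest was Ciart at 0.230, and Per2 and Nr1d2 were the farthest at 0.466 and 0.462. Closest to Arntl among 9063 candidates by the same rule were Tspan14 (0.046), Setd2 (0.048), Epn1 (0.053), Ryr2 (0.053) and Polr3k (0.059). The nearest clock gene to Arntl was Tef at 0.216 (rank 1290 of the candidates). With 6 libraries and this many candidates small distances arise readily, and these are descriptions with no test.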

How the data were processed

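Each of the 6 samples had 1 deposited table of raw read counts per gene. The submitters' processing notes name STAR 2.5.3a, featureCounts and mm10; which annotation, strand setting or rule for multi-mapping reads the authors used is not given in the sources used here. Of 55604 identifiers, 54723 matched GENCODE M21 of the same assembly, the source of symbols, places and exon lengths. After filterByExpr (at least 10 counts, total 15), 11388 genes were scaled by TMM (trimmed mean of M-values) and fitted with edgeR 4.0.16 in R 4.3.3, a robust quasi-likelihood test with group as its term, adjusted by Benjamini-Hochberg over all genes with a threshold of 0.05. Standard errors and 95% intervals come from the fold change and its F statistic, and log2 CPM used a prior count of 2. DESeq2 1.42.0, limma 3.58.1 (voom), other scalings and filters, a replicate block and each library left out were alternatives. On simulated data with 200 changed genes, the procedure recovered 9.83% of 1.5-fold, 54.3% of 2-fold and 92.2% of 4-fold changes, with 8.7% false calls. No pair of libraries was as alike as repeated counting of 1 library would be (lowest chi-square per degree of freedom 8.62). Floors of 3 counts cover counting error only. The 10 genes, their phase groups and all lists were chosen with earlier results of these data known. Named by rule were the 10 genes, the 3 other clock genes with the smallest p per direction, the called genes and the smallest p per direction of each further list set beside them, and the 5 genes most like Dbp and Arntl.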

Additional observations from a re-analysis of the deposited data

How the results depend on the processing

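None of the 10 clock genes was called higher in any setting, and none was called lower except with total counts only (2), with no filter on low counts (1, Per1 at -0.63, adjusted p = 0.0361 by edgeR) and with the replicate number as a block (1, Per1 at -0.58, adjusted p = 0.0426 by edgeR). The series' design text speaks of pairs, but no label ties a replicate number to a shared source. Same-numbered deviations from the group means correlated at -0.0019, 0.113 and 0.025 across genes, beside -0.101 to 0.064 for different numbers. The replicate block gave 153 lower and 112 higher genes in all, and 2 other clock genes lower. Dbp changed sign under relative log expression (0.0039) and upper quartile scaling (0.013), DESeq2 (0.0071), structured and mitochondrial RNA genes left out (0.0094), and without 4-AP replicate 2 (0.24) or control replicate 2 (0.068); Nr1d2 did so without 4-AP replicate 1 (0.064). With 1 library left out Dbp ranged from -0.23 to 0.24 and Nr1d2 from -0.24 to 0.064. The day and dusk median minus the dawn median ranged from -0.16 to 0.19 when 1 library was left out, negative without 4-AP replicate 3 (-0.16) or control replicate 2 (-0.066), and the within-library difference from -0.19 to 0.18, negative without the same libraries (-0.19 and -0.087). Over all genes, 58 lower and 38 higher became 293 lower with total counts only, 111 and 82 with DESeq2, 197 and 131 with no filter, 30 and 25 with no robust fit, 169 and 121 at an adjusted p under 0.1, and 10 to 54 lower and 16 to 105 higher with 1 library left out. Other clock genes called lower were 2 with total counts only, no filter, a CPM above 1 in 3 libraries, or an adjusted p under 0.1, 1 with DESeq2, and 0 to 1 with 1 library left out. The cause of these changes was not tested.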
